A study of Mus musculus with 4 samples.

Results

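The cells described here are the Rhox5-positive, Ptprc-negative cells of 2 CT26 tumour libraries that had the highest combined level of 4 interferon-induced genes, Gbp2, Gbp4, Iigp1 and Zbp1. CT26 is a mouse colon carcinoma line grown as a tumour in mice. A barcode entered the base population with at least 200 genes, at most 10% mitochondrial UMIs (unique molecular identifiers, the counted RNA molecules), at least 5000 UMIs, no UMI of Ptprc (the gene of CD45) and at least 2 UMIs of Rhox5, a homeobox gene active in many mouse tumour lines. The score was the share of a cell's UMIs from the 4 genes, and the members were chosen by this measured value as the 8% of base cells with the highest score over both libraries pooled. This gave 824 members of 10295 base cells, out of 20691 tumour barcodes and 42163 barcodes in the series. They are called GBP-high cells below, after the guanylate-binding proteins that lead the score, and the remaining 9471 base cells are called other Rhox5+ cells.

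The study profiled tumours and tumour-draining lymph nodes by droplet single-cell RNA-seq (10x Genomics single cell 3' v2), with 1 library for each tissue and treatment, and only the tumour libraries are compared here. In the NanoCa group the tumours had received NanoCa, which the series title describes as a lipid nanoparticle holding a calcium crystal, aimed at immunotherapy through interferon beta. In the Mock group the treatment tag reads no treatment, but the treatment protocol field names NanoCa for both, so every NanoCa to Mock value rests on the titles and tags. Both libraries came from female mice of 4 to 8 weeks and carry the same batch date. The sources used here do not say how many mice a library holds. Cells were stained for CD45 and sorted, the gate is not given, and the cell type tag names immune cells that infiltrate the tumour, whereas 85.1% (NanoCa) and 85.0% (Mock) of the Ptprc-negative cells with at least 5000 UMIs carried the Rhox5 counts asked for here. With 1 library per group there is no replicate and no test. Intervals are 95% intervals for counting error alone.

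Interferons act through paired receptors and JAK kinases. Type II interferon (interferon gamma, made by T and NK cells) acts on genes with gamma-activated sites and raises Irf1, the GBP and IRG families of GTPases and antigen presentation genes. Type I interferons (alpha and beta, made by many cells) act on genes with interferon-stimulated response elements and raise antiviral genes such as the IFIT and OAS families. The target genes of both overlap widely, so a raised GBP level does not tell which interferon was seen.

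The label under which these cells were proposed, carcinoma cells responding to interferon gamma, was checked against markers. Of the epithelial markers, Epcam had no UMI in the GBP-high cells of both libraries and Cdh1 was at 0.39 CPM or less in all 4 cell groups. Krt18, a keratin of simple epithelia, was low, at 30.3 and 39.7 CPM (UMIs of the gene per 1000000 UMIs of the cell group) in NanoCa GBP-high and other cells and 12.1 and 23.9 in Mock. Its partner keratin Krt8 was at 9.92 and 14.2 CPM in NanoCa and at 8.54 and 1.54 in Mock, the opposite direction, with 8 cells holding 92.2% and 92.5% of its UMIs in GBP-high cells. Xist, which female host cells express, was between 1.36 and 2.53 CPM in all 4 groups. The 14 listed carcinoma identity genes, these epithelial markers among them, summed to 20181 and 19975 CPM in NanoCa GBP-high and other cells. In Mock they summed to 20234 and 19546, so other genes of the list were high in all 4 groups. The sum therefore does not stand for the epithelial markers named above, which were low. None of its 7 tested genes was counted in the same direction in both libraries. The rule itself called the cells tumour cells by Rhox5. Rhox5 also reached 2 UMIs in 24.7% (95% interval 20.1% to 29.7%) of NanoCa and 17.8% (14.5% to 21.4%) of Mock cells with at least 3 Ptprc UMIs, whose median depths were 9399 and 9721 UMIs. With at least 1 Ptprc UMI the shares were 42.8% and 34.7%. Ifng had no UMI in the GBP-high cells. Genes typical of type I interferon were also high (given further on), so the cells are named here by the rule and not by the interferon.

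The score values describe the choice and are given in CPM. The lowest member had a score of 771 CPM (8 of 10377 UMIs, a Mock cell) and the highest cell outside had 770.5 (18 of 23362, a NanoCa cell). Scores ran on without a gap at the cut, with 79 members within 10% above it and 79 cells within 10% below it. The members are thus the upper end of a range of scores, and whether they form a separate type was not tested. The median score was 1331 CPM in NanoCa and 1409 in Mock members. Among other Rhox5+ cells, 53.5% (NanoCa) and 31.8% (Mock) had no UMI of the 4 genes. Summed over cells, Gbp2 stood at 904 CPM in NanoCa GBP-high cells against 31.2 in other Rhox5+ cells, and at 1068 against 64.7 in Mock.

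By this rule, GBP-high cells made up 255 of 5724 Rhox5+ cells in NanoCa (4.45%, Clopper-Pearson interval 3.94% to 5.02%) and 569 of 4571 in Mock (12.4%, 11.5% to 13.4%), a log2 ratio of -1.48 (-1.70 to -1.27). NanoCa gave 30.9% of the members and 55.6% of the base cells. When the 4 genes were scored in cells thinned to 5000 UMIs each the ratio was -1.46. The cells were somewhat shallower than the rest, with a median of 19499 UMIs against 22826 in NanoCa and 21042 against 25722 in Mock. They detected a median of 3934 against 4207 and 4006 against 4296 genes. Mitochondrial shares were alike (1.27% against 1.30%, 1.56% against 1.61%), and ribosomal protein genes took a smaller share (29.5% against 32.5%, 31.0% against 34.2%). The libraries shared 136 barcodes, among them 27 base cells, of which 1 was a member in both.

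Levels are the CPM of a gene in the summed UMIs of a cell group. A gene was counted as higher or lower at a difference of at least 1.5-fold, among 8856 genes with at least 5 CPM over all base cells; the rule's own genes and mitochondrial genes were left out. In NanoCa, 464 genes (5.24%) were higher and 139 (1.57%) lower in GBP-high than in other Rhox5+ cells, and in Mock 393 (4.44%) were higher and 102 (1.15%) lower. In both libraries alike, 303 genes (3.42%) were higher and 67 (0.757%) lower. Of the 303, 95 were in the interferon, antigen presentation or chemokine lists and 208 were not, and 189 were in no list used here. The median log2 ratio over all tested genes was 0.03 in NanoCa and 0.04 in Mock. Both libraries were measured against their own other Rhox5+ cells, and the cells were chosen on genes that move with many of those described, so the counts describe the chosen cells and carry no test.

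**Figure D1:**
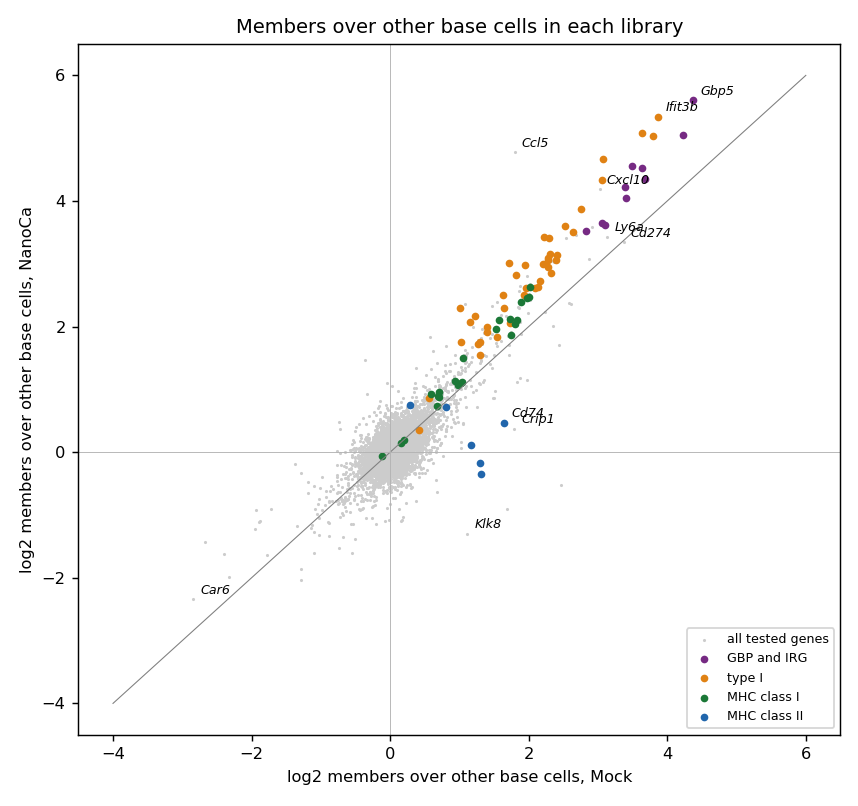
Log2 ratio of the level in GBP-high cells (members) over other base cells for 8856 genes, Mock on the x axis and NanoCa on the y axis, each point a gene, coloured by list, with the diagonal of equal ratios. GBP and IRG genes lie at the top right in both libraries, 40 of 41 type I genes lie above the diagonal, and 5 of 6 class II genes, including Cd74, lie below it.

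All 10 tested GBP and IRG genes, GTPases that coat and break open the compartments of intracellular pathogens, were higher in GBP-high cells of both libraries. Gbp5, which also promotes inflammasome assembly, stood at 53.5 CPM in NanoCa GBP-high cells against 1.10 in other cells, and at 49.9 against 2.40 in Mock, which is 48.6-fold and 20.8-fold. Gbp2b stood at 145 against 4.38 in NanoCa and 162 against 8.63 in Mock. The IRG gene Igtp (Irgm3) was at 137 against 6.76 and at 143 against 11.1. Gbp3, Gbp7, Tgtp2, Ifi47, Irgm1 and Gm4951 were between 8.34-fold and 23.6-fold higher in either library. For each of these genes both GBP-high groups were far above both other groups, and Mock other cells were above NanoCa other cells. The order of the 2 GBP-high groups varied by gene, with NanoCa above Mock for Gbp5 and below it for Gbp2b. The list's median log2 ratio was 4.29 in NanoCa and 3.44 in Mock. Of the 7 family members under the level limit, Tgtp1 was at 38.3 against 1.13 and 42.8 against 2.60. Family members with close copies (Tgtp1 and Tgtp2, Gbp2 and Gbp2b, and below Ifit3 and Ifit3b, Apol9a and Apol9b) may share reads, so the split between copies is uncertain.

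**Figure D2:**
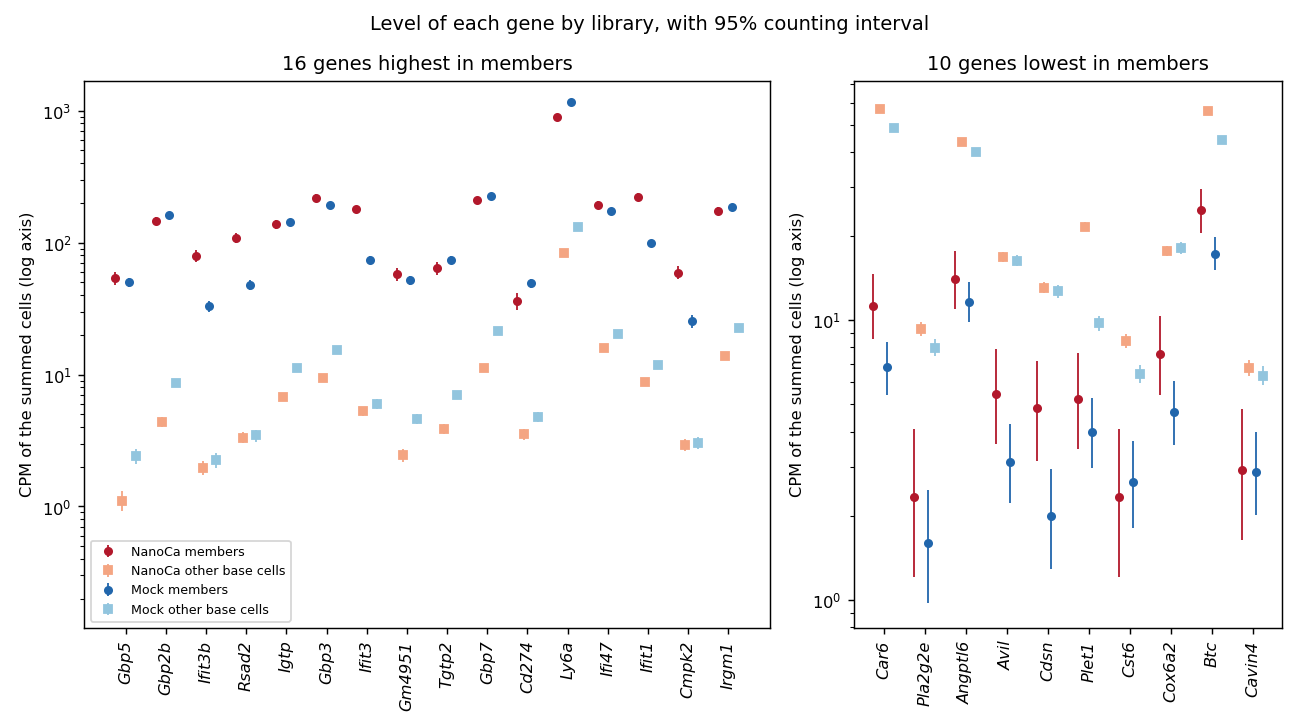
CPM (log axis) of the 16 genes highest and the 10 genes lowest in GBP-high cells by the weaker library ratio, in GBP-high cells (circles) and other base cells (squares) of NanoCa (red) and Mock (blue), with 95% counting intervals. For each of the 16 genes both circles lie above both squares, and for each of the 10 genes both circles lie below both squares.

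Of the interferon gamma signalling genes, 8 of 14 tested were higher in both libraries and none was lower in either. Irf1, an interferon-induced transcription factor, stood at 259 CPM in NanoCa GBP-high cells against 57.5 in other cells and at 286 against 89.99 in Mock. Batf2 was at 60.7 against 7.17 and 59.0 against 8.05, and Nlrc5, the activator of class I genes, at 28.6 against 6.56 and 28.0 against 8.41. The feedback inhibitors Socs1 (83.2 against 40.3, 36.8 against 22.5) and Socs3 (81.5 against 51.3, 92.5 against 55.9) differed less. The receptor chains did not reach 1.5-fold in either library: Ifngr1 was at 42.6 against 31.9 and 40.5 against 34.4, and Ifngr2 at 32.7 against 33.1 and 22.03 against 24.7. Ifnar1 (16.1 against 15.4, 15.3 against 14.4) and Ifnar2 (68.3 against 51.7, 63.5 against 53.3), the type I receptor, were likewise under that limit.

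Of a further 20 tested genes known to be induced by interferon gamma, 14 were higher in both libraries. Ly6a (Sca-1), a surface protein, stood at 896 against 83.2 CPM in NanoCa and 1154 against 131 in Mock. The lipid-binding Apol9a was at 204 against 24.7 and 152 against 30.3, and the nucleotide hydrolase Samhd1 at 177 against 36.1 and 154 against 42.2. Trafd1, Parp14, Casp1, Casp4 and Serping1 were also higher in both. Upp1 (126 against 124, 134 against 129) and Gch1 (105 against 83.4, 80.9 against 70.6) were not. Ido1, a tryptophan-degrading enzyme under the level limit, had 43 UMIs in 28 of 255 NanoCa and 152 UMIs in 76 of 569 Mock GBP-high cells (8.36 and 12.1 CPM), and 0.14 and 0.50 CPM in other cells. Together with the GTPase and signalling lists, 32 of 44 tested genes were higher in both libraries.

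Of the type I genes, the list with the most tested members, 39 of 41 were higher in both libraries and none was lower in either, with median log2 ratios of 2.83 in NanoCa and 2.09 in Mock. The exceptions were Ifi27, at 234 against 183 and 254 against 191, and Zc3hav1, which was higher in NanoCa (75.8 against 41.7) and under the limit in Mock (67.3 against 45.4). Ifit3, an RNA-binding antiviral protein, stood at 178 CPM in NanoCa GBP-high cells against 5.27 in other cells, and at 74.3 against 5.98 in Mock. Its relatives Ifit1 (223 against 8.74, 98.8 against 11.7) and Ifit3b (79.3 against 1.95, 32.8 against 2.24) had the same order. Rsad2 (viperin) was at 108 against 3.31 and 47.8 against 3.45. Isg15, a ubiquitin-like modifier, was at 1186 against 112 and 545 against 112, and Usp18, which removes it, at 217 against 14.8 and 101 against 15.0. For each of these genes NanoCa GBP-high cells were highest and Mock GBP-high cells next, and the 2 groups of other cells were close together.

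Promoter windows show which of these genes carry the letters of interferon-bound elements. RefSeq windows (GRCm38.p6, 250 bases before to 50 after each start) were found for 237 of the 303 genes and searched on both strands, counting overlapping matches, for GAAANNGAAA, the core of the interferon-stimulated response element, and TTCNNNGAA, the gamma-activated site. Over all 32851 windows, 3.44% held the first and 8.30% the second. Among the 237 genes, 60 (25.3%) held the first and 39 (16.5%) the second, against 3.88% and 7.95% of the 7158 tested genes with a window. The first was found in 8 of 9 GBP and IRG genes, 15 of 34 type I genes and 5 of 20 class I genes, and the second in 5, 7 and 2 of them. Neither was found in the 11 matrix genes with a window. Of 50 genes that were lower, 3 held the first and 4 the second. A match is a run of letters and not a measured site, and no match says only that these letters are not in the window. The 250 bases before the start are printed 5′ to 3′ in the direction of the gene, in lower case with matches in capitals. Gbp2 is a gene of the score, so its high level was set by the choice of cells. Gbp5, Ifit3, Isg15 and Cxcl10 were higher genes with a match, Cd274 was a higher gene without one, and Car6 was the gene with the lowest ratio:
Gbp2: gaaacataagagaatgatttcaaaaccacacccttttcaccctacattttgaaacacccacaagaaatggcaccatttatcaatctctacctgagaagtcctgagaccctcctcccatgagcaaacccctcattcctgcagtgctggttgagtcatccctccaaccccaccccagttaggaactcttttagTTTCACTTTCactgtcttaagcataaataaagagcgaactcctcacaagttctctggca
Gbp5: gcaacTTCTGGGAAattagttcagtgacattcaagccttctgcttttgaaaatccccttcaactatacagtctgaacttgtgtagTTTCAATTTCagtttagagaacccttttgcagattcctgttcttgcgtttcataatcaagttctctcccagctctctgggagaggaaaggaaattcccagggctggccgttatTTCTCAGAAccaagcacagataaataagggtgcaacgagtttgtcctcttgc
Ifit3: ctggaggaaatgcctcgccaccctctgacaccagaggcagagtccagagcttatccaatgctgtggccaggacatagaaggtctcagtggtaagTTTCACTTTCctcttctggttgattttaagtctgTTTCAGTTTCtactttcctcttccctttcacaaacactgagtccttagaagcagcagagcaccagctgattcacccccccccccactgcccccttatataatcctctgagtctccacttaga
Isg15: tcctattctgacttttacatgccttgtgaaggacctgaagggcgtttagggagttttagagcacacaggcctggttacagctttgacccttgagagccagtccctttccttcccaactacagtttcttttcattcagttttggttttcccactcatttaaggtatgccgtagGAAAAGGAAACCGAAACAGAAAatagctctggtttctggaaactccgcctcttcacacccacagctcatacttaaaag
Cxcl10: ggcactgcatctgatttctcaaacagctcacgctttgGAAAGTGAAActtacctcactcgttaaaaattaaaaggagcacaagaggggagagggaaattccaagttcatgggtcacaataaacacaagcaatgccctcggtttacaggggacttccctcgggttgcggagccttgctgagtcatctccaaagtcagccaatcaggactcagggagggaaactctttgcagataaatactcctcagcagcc
Cd274: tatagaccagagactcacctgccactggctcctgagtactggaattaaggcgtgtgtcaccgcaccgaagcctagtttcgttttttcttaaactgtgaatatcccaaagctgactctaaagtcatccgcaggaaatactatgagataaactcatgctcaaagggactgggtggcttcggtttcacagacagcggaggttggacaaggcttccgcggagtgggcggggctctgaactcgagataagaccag
Car6: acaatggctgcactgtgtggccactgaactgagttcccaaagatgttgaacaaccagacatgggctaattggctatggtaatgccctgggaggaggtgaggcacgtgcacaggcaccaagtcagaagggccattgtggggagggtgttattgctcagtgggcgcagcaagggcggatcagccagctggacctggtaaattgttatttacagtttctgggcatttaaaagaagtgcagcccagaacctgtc

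These windows lie at chr3:142620413-142620662 (plus strand) for Gbp2, chr3:142496684-142496933 (plus) for Gbp5, chr19:34583279-34583528 (plus) for Ifit3, chr4:156200819-156201068 (minus) for Isg15, chr5:92348890-92349139 (minus) for Cxcl10, chr19:29367188-29367437 (plus) for Cd274 and chr4:150201136-150201385 (minus) for Car6. Gbp2 held 1 response element match, starting 59 bases before the start site. Gbp5 held 1 response element match at 165 bases and 2 gamma-activated site matches at 245 and 52 bases before it. Ifit3 held 2 response element matches (156 and 122 bases) and no gamma-activated site match. Isg15 held 3 overlapping response element matches between 78 and 66 bases before the start, and Cxcl10 held 1 at 213 bases. Cd274 and Car6 held neither, and the 250 bases before the start of Psmb9 and Tap1, which were also higher in GBP-high cells, held neither. The windows of Psmb9 (chr17:34187331-34187580, minus) and Tap1 (chr17:34187306-34187555, plus) overlap on opposite strands, so they are largely the same bases. Of the 7 printed windows, Gbp5 had letters of both elements.

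Class I antigen presentation was higher throughout the pathway, in 20 of 23 tested genes in both libraries. The light chain B2m stood at 1495 CPM in NanoCa GBP-high cells against 803 in other cells and at 1710 against 1061 in Mock. The heavy chains H2-K1 (2063 against 1128, 2314 against 1412) and H2-D1 (1686 against 1008, 1956 against 1229) differed by less than 2-fold. The non-classical H2-T23 was at 101 against 19.3 and 119 against 32.0. Larger ratios came from peptide supply: Psmb9, an immunoproteasome subunit, was at 293 against 52.9 and 371 against 92.3, and the peptide transporter subunit Tap1 at 160.0 against 25.9 and 140 against 34.5. The general chaperones Calr, Canx and Pdia3 were the genes that did not differ by 1.5-fold. The median log2 ratio of the list was 1.14 in NanoCa and 1.04 in Mock.

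Class II genes differed between the libraries over all cells, but less once cells with immune markers were left out. Cd74, the invariant chain, stood at 46.3 CPM in NanoCa GBP-high cells against 33.4 in other cells, and at 115 against 36.7 in Mock. H2-Aa was at 11.7 against 13.2 in NanoCa and 31.1 against 12.7 in Mock. In NanoCa 2 of 6 tested class II genes were higher, and in Mock 5 were. NanoCa cells with a score from 250 CPM to the cut, which count among the other cells, had 183 CPM of summed class II genes. NanoCa members had 89.1 below a score of 1500 and 102 above it, and Mock had 162, 201 and 201 in these steps. A few cells carried much of this: 8 cells held 69.7% of the 238 Cd74 UMIs of NanoCa GBP-high cells and 48.1% of the 1441 in Mock, and Cd74 was seen in 58 of 255 and 225 of 569 cells. Ciita, the class II activator, had 0.19 and 0.72 CPM in GBP-high cells. Without the cells that had at least 10 UMIs of immune or endothelial markers or at least 2 of Xist, the log2 ratio of Cd74 changed from 0.47 to 1.44 in NanoCa and from 1.65 to 1.82 in Mock, and without predicted doublets it was 1.26 and 1.94. Without those host-marker cells H2-Aa in NanoCa turned from -0.17 to 0.89, and the class II median was 0.93 in NanoCa and 1.07 in Mock, against 0.29 and 1.23 with them. Among cells with no immune marker UMI the medians were 1.12 and 1.00.

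Among secreted signals, 4 of 7 tested chemokines were higher in both libraries. Cxcl10, which attracts CXCR3-bearing T and NK cells, stood at 743 CPM in NanoCa GBP-high cells against 40.9 in other cells and at 452 against 55.6 in Mock. The other CXCR3 ligand, Cxcl9, which is more specific to interferon gamma, was low throughout, at 3.89 against 0.91 and 7.03 against 1.68. The monocyte attractants Ccl2 (1860.0 against 672, 2371 against 952) and Ccl7 (123 against 48.2, 108 against 53.3) were higher in both. Ccl5 was at 257 against 9.38 in NanoCa and 22.5 against 6.48 in Mock, but 29 of 255 and 41 of 569 cells held all its UMIs and 8 cells held 85.5% and 84.8% of them. Neutrophil attractants did not reach the limit, with Cxcl1 at 1755 against 1410 and 1825 against 1546. Ifnb1 had 7 UMIs in 2 NanoCa cells and 6 UMIs in 6 Mock cells.

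Of 7 tested genes that restrain immune attack, 4 were higher in both libraries. Cd274 (PD-L1), the ligand of PD-1 on T cells, stood at 35.8 CPM in NanoCa GBP-high cells against 3.51 in other cells and at 49.1 against 4.75 in Mock. After thinning each cell to 5000 UMIs, 16.1% (11.8% to 21.2%) of NanoCa GBP-high cells had a Cd274 UMI against 1.87% of other cells, and 17.4% (14.4% to 20.8%) against 2.32% in Mock. Without thinning the shares were 33.7% against 7.003% and 40.4% against 10.0%. Lgals9, a galectin (190.0 against 65.3, 133 against 62.3) and Serpinb9, an inhibitor of granzyme B (16.1 against 4.396, 15.3 against 5.51), were also higher. Cell death genes were higher in 9 of 17 cases, among them Mlkl (48.6 against 21.0, 39.4 against 23.2), Gsdmd (44.3 against 24.5, 41.1 against 23.9), Casp1 and Casp4, while Bax (291 against 284, 265 against 253) and Casp8 (24.1 against 19.9, 21.2 against 21.0) were not. Of 16 NF-kB and TNF genes, 4 were higher in both libraries, and Nfkbia was at 1622 against 1405 and 1457 against 1344.

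Fewer genes were lower than higher, and the 10 lowest by ratio had at most 57.1 CPM in any cell group. Car6, a secreted carbonic anhydrase, was lowest by ratio, at 11.3 CPM in NanoCa GBP-high cells against 57.1 in other cells and at 6.79 against 48.8 in Mock, log2 ratios of -2.34 (-2.74 to -1.97) and -2.85 (-3.17 to -2.54). It was found in 21 of 255 and 34 of 569 GBP-high cells. Pla2g2e, a secreted phospholipase, was at 2.33 against 9.30 and 1.60 against 7.98, and Angptl6, a secreted angiopoietin-like protein, at 14.0 against 43.3 and 11.7 against 39.8. The actin-binding Avil (5.44 against 16.8, 3.11 against 16.4), the epidermal adhesion gene Cdsn (4.86 against 13.1, 2.00 against 12.7) and Btc, an EGF receptor ligand (24.7 against 56.1, 17.3 against 44.1), were lower as well. Plet1, Cst6, Cox6a2 and Cavin4 completed the 10 lowest. All 10 had both GBP-high groups below both other groups.

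Summed proliferation genes were alike, while fewer single GBP-high cells had many of their UMIs. None of 22 S-phase and none of 24 G2/M genes reached 1.5-fold in either library. G2/M genes summed to 2404 CPM in NanoCa GBP-high cells against 2460 in other cells and to 2273 against 2255 in Mock. The share of cells with at least 10 G2/M UMIs was 47.8% against 61.9% and 47.6% against 60.02%, in cells that were shallower. The median G2/M level per cell, which is scaled to depth, was also lower, at 525 against 809 CPM in NanoCa and 507 against 602 in Mock. Of 20 tested glycolysis and hypoxia genes, Bnip3, a mitophagy receptor (45.3 against 70.9, 84.2 against 126), and Ero1l, an oxidoreductase of the endoplasmic reticulum (69.8 against 124, 68.6 against 132), were the lowest by ratio together with Ankrd37 (9.72 against 17.3, 18.3 against 25.4). Only Ero1l was counted as lower in both libraries. None of 17 stress response genes was counted in the same direction in both, and Atf4 was at 285 against 286 and 265 against 279.

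Matrix genes were higher in 8 of 15 tested cases in both libraries, together with 2 of 4 tested fibroblast markers. The summed matrix list differed little, at 2521 against 2363 CPM in NanoCa and 2368 against 2183 in Mock. NanoCa cells with a score from 250 CPM to the cut had 308 CPM of fibroblast markers. NanoCa members had 167 below a score of 1500 and 368 above it, and Mock had 235, 223 and 247 in these steps. Col1a2, a chain of type I collagen, stood at 466 CPM in NanoCa GBP-high cells against 274 in other cells and at 449.8 against 259 in Mock, and Bgn (biglycan) at 87.7 against 35.7 and 59.5 against 28.1. Timp1, an inhibitor of metalloproteinases, went the other way, at 627 against 1074 and 604 against 1042. The 6 fibroblast markers summed to 244 CPM against 118 in NanoCa and 233 against 112 in Mock, none was at 0 in any group, and 14.5% against 7.50% and 15.1% against 7.30% of cells had at least 10 UMIs of them. Without those cells the matrix median fell from 0.77 to 0.36 in NanoCa and from 0.80 to 0.70 in Mock, while the count of genes higher in both libraries was 289. The matrix median was 0.47 and 0.54 without cells with host markers, and 0.27 and 0.27 among cells with no immune marker UMI. Outside the lists, and picked after their values were seen, the proteoglycans Ogn (120 against 32.6, 176 against 47.5) and Aspn (49.4 against 13.0, 40.3 against 13.8) and the lipocalin Apod (190.4 against 17.8, 127 against 21.8) were higher too. Without the cells holding at least 10 fibroblast marker UMIs, the log2 ratio of Apod was 3.42 in NanoCa and 2.98 in Mock, against 3.41 and 2.54 with them. That of Dcn, itself one of these markers, was 0.29 and 0.96, against 1.05 and 1.09. The part of fibroblast cells or RNA in these values was not tested further.

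Monocyte and macrophage markers were also higher in NanoCa GBP-high cells, by 1.5-fold or more in 7 of 8 tested genes, and in none in Mock. All 12 markers summed to 332 CPM against 189 in NanoCa and 138 against 117 in Mock, with none at 0. Of NanoCa GBP-high cells 7 had at least 10 such UMIs and of Mock 16 (2.75% and 2.81%), against 2.71% and 1.42% of other cells. By this share of cells, NanoCa GBP-high cells were like the other NanoCa cells. In NanoCa GBP-high cells, 8 cells held 78.6% of the C1qa UMIs. Markers of T, NK, B and dendritic cells and neutrophils summed to at most 5.91 CPM per class in GBP-high cells, and 19 of 48 immune markers were at 0 in NanoCa GBP-high cells and 8 in Mock. Leaving out cells with host markers kept 244 of 255 NanoCa and 550 of 569 Mock GBP-high cells, and then 302 genes were higher and 72 lower in both libraries, and the log2 ratio of C1qa in NanoCa fell from 0.80 to 0.09.

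GBP and IRG, class I and type I genes rose with the score over its whole range, not at the cut alone. Class II genes, matrix genes and the fibroblast and myeloid markers did not rise steadily in NanoCa. Matrix genes there summed to 3068 CPM in the step just below the cut, and to 2265 and 2935 in the member steps. From cells with no score UMI to cells with at least 1500 CPM, GBP and IRG genes summed to 33.8, 55.3, 141, 398, 997 and 2023 CPM in 6 steps of the score in NanoCa, and to 40.8, 67.0, 158.5, 411, 916 and 2106 in Mock. Class I genes went from 4279 to 10744 and from 4719 to 11572. Car6 ran the other way, from 75.8 to 1.02 and from 80.0 to 3.17 CPM. Type I genes were alike in the cells with no score UMI, at 1061 (NanoCa) and 1051 (Mock), and higher in NanoCa at each further step below the cut, at 1478 against 1355, 2539 against 2299 and 4140 against 3578. In members they were at 7141 against 5062 below a score of 1500 and 9450.3 against 6347 above it. G2/M genes had no such course, lying between 1944 and 2689 in NanoCa and between 2084 and 2457 in Mock. Median depth was 17048 to 25488 UMIs over the steps in NanoCa and 20405 to 28482 in Mock.

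**Figure D3:**
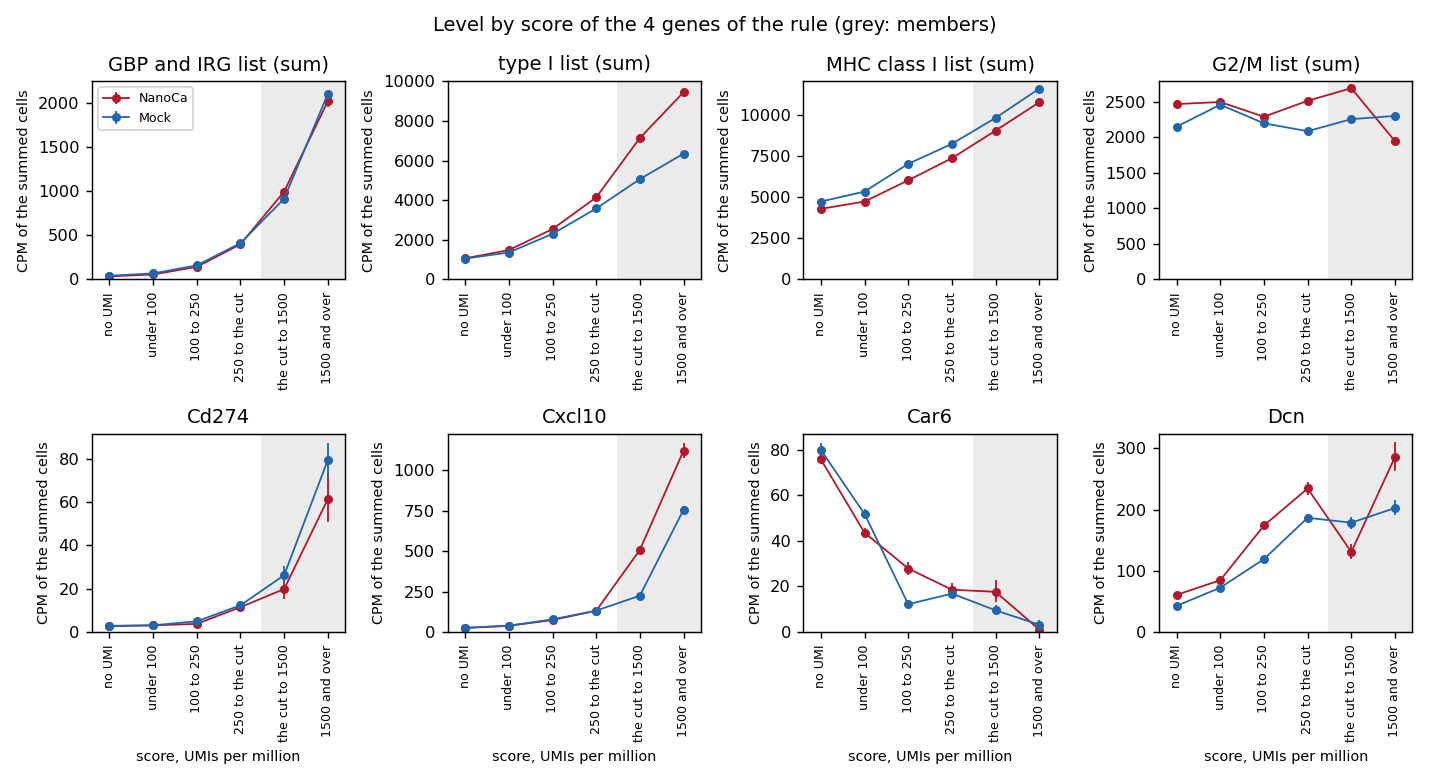
CPM of the summed cells (y axis) in 6 steps of the score of the 4 chosen genes (x axis, score CPM, members in grey) for NanoCa (red) and Mock (blue), with 95% counting intervals. GBP and IRG, class I, Cd274 and Cxcl10 levels rise with the score, Car6 falls from 75.8 and 80.0 to 1.02 and 3.17, Dcn (a fibroblast marker) is higher in members than in cells with no score UMI, G2/M genes show no steady course, and type I genes are higher in NanoCa at every step with a score UMI, by more in the members.

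Single GBP-high cells varied widely. The GBP and IRG list, which excludes the 4 chosen genes, had a median of 1288 CPM in NanoCa and 1193 in Mock, with quartiles of 748 and 1982 in NanoCa and 707 and 1824 in Mock. The type I list had a median of 6232 in NanoCa and 4480 in Mock, with quartiles of 3545 and 12067 and of 2894 and 7855. Across cells, the 2 lists had a Pearson correlation on the log2 scale of 0.19 over 255 NanoCa cells and 0.36 over 569 Mock cells. This is a description, since cells of a library share their depth range and free RNA. GBP-high cells thus had a wide range of type I levels in both libraries, but most were above the typical other cell. The 10th percentile of GBP-high cells was 2540 CPM in NanoCa and 2010 in Mock. The median of other Rhox5+ cells was 1128 and 1322.

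**Figure D4:**
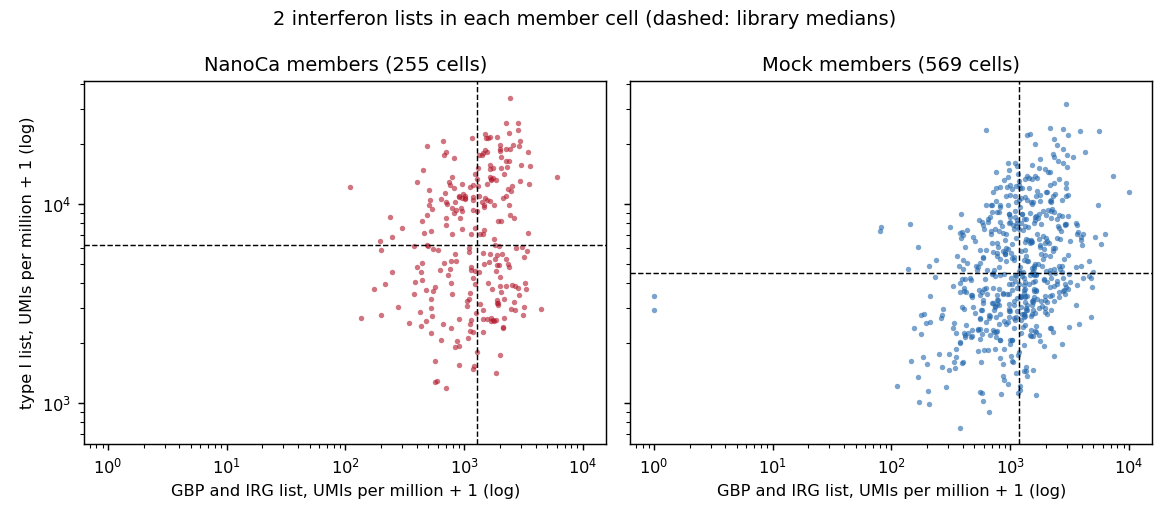
Type I list (y axis) against GBP and IRG list (x axis), both as CPM plus 1 on log axes, for each of 255 NanoCa and 569 Mock GBP-high cells, with library medians dashed. The clouds overlap, and the NanoCa cloud reaches higher on the y axis, with an upper quartile of 12067 against 7855.

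Between treatments, 611 genes (6.90%) were at least 1.5-fold higher and 113 (1.28%) lower in NanoCa than in Mock GBP-high cells. Other Rhox5+ cells gave 491 (5.54%) and 41 (0.463%). With TMM scaling the counts for GBP-high cells were 493 higher and 172 lower. The 5 most raised genes after Ccl5 were as different in other cells, so these differences were not limited to GBP-high cells. Srm, which makes spermidine, stood at 339.7 CPM in NanoCa and 54.3 in Mock GBP-high cells, and at 426 and 65.0 in other cells. Glrx5, an iron-sulfur cluster protein, was at 59.7 and 7.34, and at 64.6 and 6.53 in other cells. Pcbd2, Iscu and Bri3 had log2 ratios of 2.50 to 2.57 in GBP-high cells and 2.44 to 2.71 in other cells.

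Type I genes differed between treatments by more in GBP-high than in other cells, a difference that was not tested. Of 41, 21 were at least 1.5-fold higher in NanoCa than in Mock GBP-high cells and none was lower, with 40 ratios above even and a median log2 ratio of 0.61, while in other cells none passed the limit and the median was -0.17. NanoCa other cells had lower scores, and within each step of the score below the cut their summed type I level was at or above that of Mock, as given above. Isg15 had a log2 ratio of 1.12 in GBP-high and 0.01 in other cells, Ifit1 1.17 (1.06 to 1.29) and -0.43 (-0.54 to -0.31), and Cxcl10 0.72 and -0.44. Among cells free of any immune marker UMI, Ifit1 was close to even in GBP-high cells, at -0.07. There Cxcl10 was at -0.64, so its direction turned, while Isg15 was at 0.82. Without the 8 cells of each library highest in the type I list, the list's median was 0.54, without cells with host markers it was 0.61, and with cells free of any immune marker UMI (46 and 76 members) it was 0.28. With members taken as the highest 8% of each library, which makes the NanoCa members lower in score, it was 0.18 in GBP-high and -0.47 in other cells, and Cxcl10 was at -0.29 in GBP-high cells. GBP and IRG genes differed the other way round, with none of 10 past the limit in GBP-high cells (median -0.08) and 9 of 10 lower in NanoCa other cells (median -0.84). Since the pooled cut gives both libraries members of like score, a like GBP level in members follows from the choice.

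**Figure D5:**
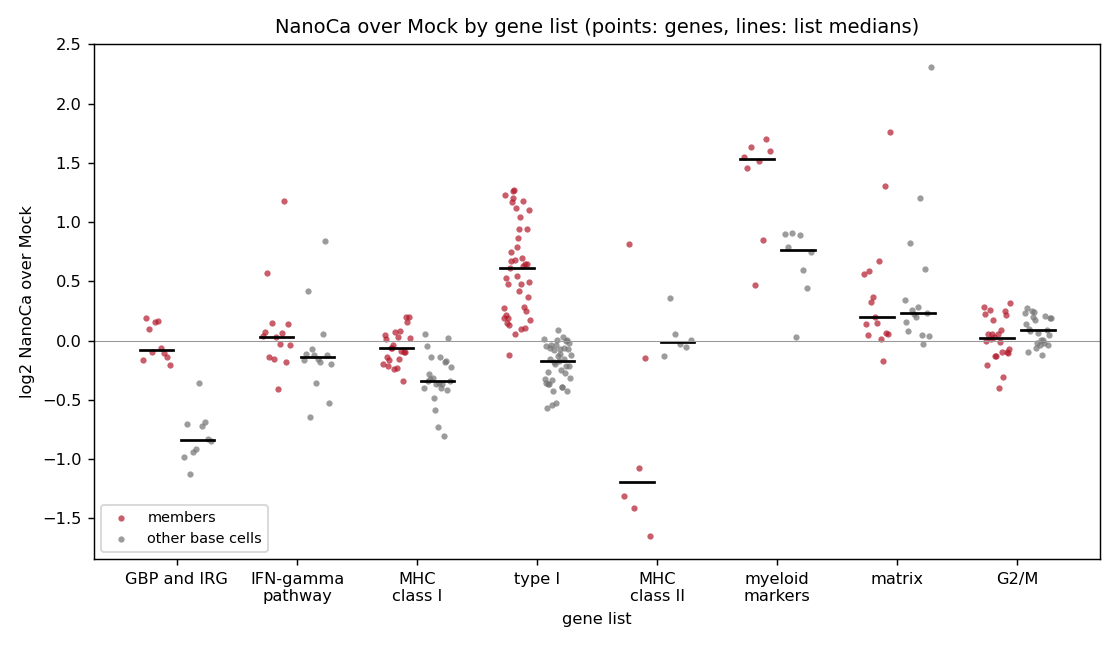
Log2 ratio of NanoCa over Mock (y axis) for the tested genes of 8 lists (x axis), in GBP-high cells (members, red) and other base cells (grey), each point a gene and each line a list median. The type I median is 0.61 in members and -0.17 in other cells, the class II median is -1.19 and -0.01, and the myeloid marker median is 1.53 and 0.77.

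The largest single ratios included genes that immune cells also express. Ccl5 was 11.4-fold higher in NanoCa than in Mock GBP-high cells (log2 3.51, 3.33 to 3.70) and 1.45-fold in other cells, resting on the few cells named above. Without cells with host markers the log2 ratio of Ccl5 was 3.62 in GBP-high and 0.24 in other cells, and without predicted doublets it was 3.58 and 0.54. Among genes with at least 50 CPM in either GBP-high group, Cd74 had the lowest ratio, -1.31 (-1.52 to -1.11) against -0.13 in other cells, and 4 of 6 class II genes were lower in NanoCa GBP-high cells. Without cells with host markers Cd74 was at -1.12 in GBP-high and -0.74 in other cells, and the class II median was -0.55 and -0.37. Without predicted doublets Cd74 was at -1.37 and -0.69. Crip1, a small LIM protein, stood at 223 CPM in NanoCa and 458 in Mock GBP-high cells, and at 172 and 133 in other cells. Serping1, the C1 inhibitor of complement, was at 43.0 and 76.4 in GBP-high cells and at 13.2 and 14.2 in other cells, and the complement protease gene C1s1 at 51.5 and 93.2, and 10.9 and 19.8. Without cells with host markers, the log2 ratios of Crip1 and Serping1 in GBP-high cells were -1.14 and -0.91, against -1.04 and -0.83 with them. Bnip3 and Ppp1r10 had like ratios in both kinds of cell. Of 8 tested myeloid markers, 7 were at least 1.5-fold higher in NanoCa than in Mock GBP-high cells, with a median log2 ratio of 1.53, and 0.77 in other cells, and their part in the other differences was not tested beyond the values without host-marker cells.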

How the data were processed

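Gene expression was measured by single-cell RNA-seq in 4 libraries, of which the 2 tumour libraries were used. The authors deposited raw UMI counts per gene and barcode for 31253 genes, made with Cell Ranger 7.1.0 per the file headers. The labels and headers used here name no genome build. The tumour libraries held 167924801 (NanoCa) and 148121144 (Mock) UMIs over 11287 and 9404 barcodes, of which 11215 and 9281 had at least 200 genes and at most 10% mitochondrial UMIs. Whether the authors removed doublets is not stated, and they were removed here only in an alternative (Scrublet in scanpy 1.11.5), which dropped 16 of 255 and 36 of 569 members.

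UMIs were summed over members and over other base cells of each library and scaled to CPM. Levels carry exact Poisson and ratios exact conditional binomial 95% intervals. These cover counting error only. A gene at 0 was compared with a floor of 3 counts. With 1 library per group no test was made. The functions were tested on simulated data. Named genes were the 16 highest and 10 lowest by the weaker library ratio, the 6 highest and 6 lowest between treatments among genes with at least 50 CPM in either member group, and examples from 28 gene lists. The members and lists were chosen with earlier results of these data known. Analyses used Python 3.11.15 and, for TMM factors, edgeR 4.0.16 (R 4.3.3). Alternatives changed the member share, score genes, cell filters, scaling, level limit and fold, 1 at a time. Promoters came from the RefSeq table by symbol. The values of 1 listed gene are not reported here.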

Additional observations from a re-analysis of the deposited data

Results flagged for a closer look

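Klk8, Syt8 and Tnfaip6 differed in opposite directions in the 2 libraries. Every one of these differences was picked from all tested genes and was not tested. Klk8, a serine protease, had a log2 ratio of GBP-high over other Rhox5+ cells of -1.3 in NanoCa and 1.11 in Mock, and of NanoCa over Mock of -1.31 in GBP-high and 1.1 in other cells. Its levels were low, at 5.25 and 12.9 CPM in NanoCa GBP-high and other cells and 13.0 and 6.03 in Mock. Syt8, a synaptotagmin, had -0.908 in NanoCa and 1.69 in Mock, and between libraries -1.28 in GBP-high and 1.32 in other cells. Tnfaip6, a hyaluronan-binding protein, had -0.641 and 0.675, and -0.684 and 0.632. Without cells holding at least 10 UMIs of fibroblast markers, Tnfaip6 had 0.78 in NanoCa and 1.06 in Mock, so its opposite direction was not kept there.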

How the results depend on the processing

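Of 24 other settings, the count of genes higher in members in both libraries stayed within 1.5 times of 303 in 21, and was 488 with a limit of 1 CPM, 131 with 20 and 153 at 2-fold. The count of lower genes (67) was 44 with the highest 12% of cells as members, 119 without cells with any immune marker UMI, 148 and 30 with limits of 1 and 20, and 17 at 2-fold. With a limit of 20, the interferon gamma lists gave 16 genes and the type I list 17, and at 2-fold class I gave 13, while all other settings stayed within 1.5 times. Genes higher in NanoCa members (611) were 1417 without cells with any immune marker UMI, 1106 and 246 with limits of 1 and 20, and 255 at 2-fold. Genes lower there (113) were 251 with the highest 5% and 63 with the highest 12% as members, 691 without any immune marker UMI (46 and 76 members left), 172 with TMM, 171 with the mean of per-cell values, 454 and 19 with limits of 1 and 20, and 22 at 2-fold. The log2 ratio of member shares was -1.06 without any immune marker UMI and -0.00101 with 8% taken in each library, where the choice sets it, and -1.65 to -1.36 otherwise.

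TMM scaling moved the median log2 ratio of all genes in NanoCa from 0.03 to -0.08. Leaving out host-marker cells, fibroblast-marker cells or the 8 members per library highest in the type I list was chosen after seeing the data. The cause of these changes was not tested. Genes near 5 CPM rest on few UMIs in 255 cells. No paired analysis was possible because each group is 1 library.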

Other observations

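The same rule and cut applied to the lymph node libraries gave 9 of 215 Rhox5+, Ptprc-negative cells in NanoCa (4.19%, 95% interval 1.93% to 7.80%) and 293 of 798 in Mock (36.7%, 33.4% to 40.2%). These are single libraries without a test, and the cell types behind them were not described here.

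Outside the lists, and picked after their values were seen, Il15, a cytokine that sustains NK and memory T cells, stood at 55.8 CPM in NanoCa GBP-high cells against 10.4 in other Rhox5+ cells and at 48.7 against 12.02 in Mock. Ly6c1 was at 111 against 21.6 and 147 against 24.5, and Ly6c2, a close relative that may share reads with it, at 67.3 against 13.1 and 83.5 against 13.7.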
